A study of Sus scrofa with 12 samples.

Results

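PNP and CDA encode a pair of enzymes that handle nucleosides, and their transcripts were followed in coronary artery tissue of pigs that had received 3 types of stent. They are 2 of the 6765 genes that have a probe set of their own on the porcine array, and each is read by 1 probe set. Both were chosen by their measured values in the comparison of SES with BMS on these same arrays, so that comparison is described below without a test. All probe sets whose only gene symbol in the platform's annotation was PNP or CDA were taken, and both passed the filter on low signal.

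The tissue came from Yorkshire farm pigs and was dissected by hand from the stented arteries 28 days after angioplasty and implantation. Each group held 4 artery segments from 2 pigs, measured on 4 arrays. The ZES group carried zotarolimus-eluting stents, in the right coronary artery (RCA) and in the LAD, the left anterior descending artery, of both pigs. The SES group carried sirolimus-eluting stents, in the RCA and LAD of one pig and in the RCA and left circumflex artery (LCX) of the other. The BMS group carried bare metal stents, in the RCA and LAD of both pigs, and it is the group without a drug but not without a stent. Sirolimus binds FKBP12 and inhibits the mTOR kinase, and zotarolimus is an analog of it in which a tetrazole ring replaces a hydroxyl group. The sources used here give neither the drug doses nor the age of the pigs, and unstented artery was not analysed here. For the stent the labels name only its type, so drug, dose and other features of a stent cannot be told apart. Segments are numbered 1 to 4 within a stent type; 1 and 2 share a pig, as do 3 and 4. Because each group has only 2 pigs, the p-values below rest mainly on the spread between segments.

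Purine nucleoside phosphorylase, the product of PNP, splits inosine and guanosine into a free base and ribose 1-phosphate. The base can be returned to the nucleotide pool by HPRT1 or oxidised to uric acid, and the sugar phosphate enters pentose metabolism through the phosphopentomutase PGM2. Cytidine deaminase, the product of CDA, turns cytidine and deoxycytidine into uridine and deoxyuridine, the pyrimidine counterpart of the step that adenosine deaminase performs on purines. In humans, inherited loss of PNP depletes T cells, and CDA is abundant in neutrophils. These roles were worked out largely in human cells and are background to the porcine values.

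Values are log2 signals as the authors deposited them, so a difference of 1 is a doubling of signal. PNP gave log2 signals of 10.87, 7.79, 9.44 and 9.20 on ZES segments 1 to 4. On SES segments 1 to 4 it gave 11.06, 11.97, 11.62 and 10.27. On BMS segments 1 to 4 it gave 3.58, 5.03, 7.42 and 9.86. The SES values lay highest and close together, ZES segment 1 exceeded only SES segment 4 among them while the other ZES segments lay below them all, and the BMS values were spread widely. BMS segments 1 and 2, from the same pig, were not above the background of their arrays, while BMS segment 4 lay above 3 of the 4 ZES segments. The mean log2 signal of PNP was 9.32 ± 1.26 with ZES, 11.23 ± 0.74 with SES and 6.47 ± 2.76 with BMS (SD, n = 4 arrays each).

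CDA gave log2 signals of 9.72, 5.90, 8.43 and 7.33 on ZES segments 1 to 4. On SES segments 1 to 4 it gave 9.92, 11.25, 11.07 and 10.92. On BMS segments 1 to 4 it gave 7.43, 3.72, 6.83 and 8.01. Here the SES segments stood above every segment of the other stent types, with only ZES segment 1 close to them, and the ZES and BMS segments were interleaved. BMS segment 2 was not above the background of its array. The mean log2 signal of CDA was 7.85 ± 1.62 with ZES, 10.79 ± 0.59 with SES and 6.50 ± 1.91 with BMS (SD, n = 4 arrays each). For both genes the order of the means was SES, ZES, BMS. In that order the neighbours ZES and BMS overlapped for both genes, and the neighbours SES and ZES overlapped for PNP.

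**Figure D1:**
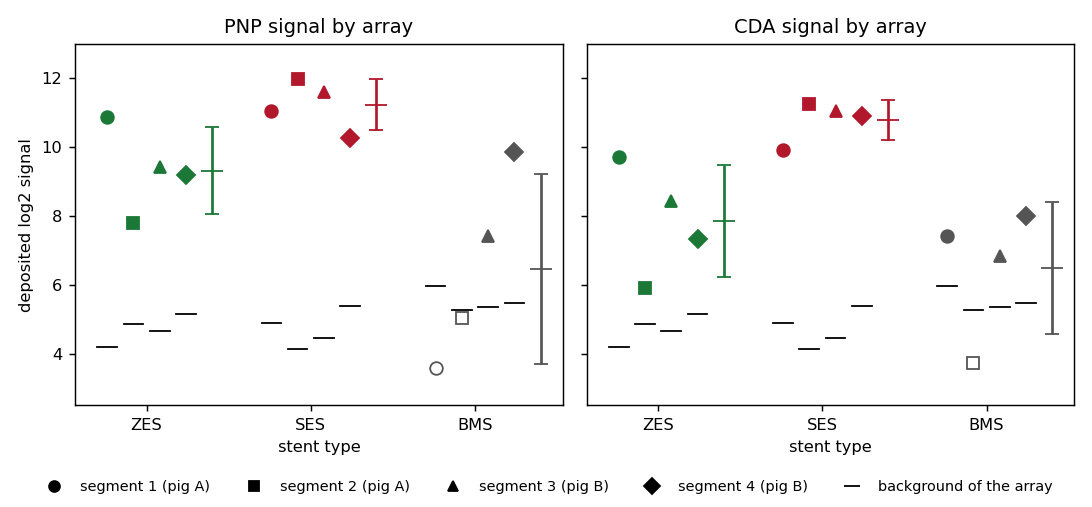
Deposited log2 signal (vertical axis) of PNP (left) and CDA (right) on each of the 12 arrays, by stent type. Each marker is 1 artery segment, open where it is not above the background of its array, short black lines give that background, and bars give the mean ± SD of 4 arrays; pigs A and B differ between stent types. The SES segments lie between 10.27 and 11.97 for PNP and between 9.92 and 11.25 for CDA, above every BMS segment.

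The comparison of SES with BMS, which chose these genes, asks what a sirolimus-eluting stent adds to stenting. PNP was 4.76 ± 0.96 higher with SES than with BMS on the log2 scale (SE), which is 27.1-fold. CDA was 4.29 ± 0.82 higher (SE), which is 19.6-fold. Among the 5793 genes tested, PNP had the 7th and CDA the 14th highest difference. Every SES segment exceeded every BMS segment for both genes, by at least 0.41 for PNP and 1.92 for CDA on the log2 scale. Such separation was found for 4.90% of genes, and 0.898% of genes passed an adjusted p of 0.05 in this comparison. Nothing is read from these values, since they served to pick the genes. The size for PNP depends on which BMS pig is used: the difference was 2.59 without the pig of BMS segments 1 and 2, and 6.93 without the pig of BMS segments 3 and 4. Since the arrays measure bulk tissue, fewer cells of a type and less RNA per cell cannot be told apart for these or any later values.

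Set against BMS, ZES addresses the same question for a zotarolimus-eluting stent, and it shares the BMS arrays with the comparison that chose the genes. PNP was 2.85 ± 0.96 higher with ZES than with BMS on the log2 scale (SE, 95% interval 0.82 to 4.89), or 7.22-fold, the 28th highest difference of 5793 genes. Limma with Benjamini-Hochberg adjustment over all probe sets gave adjusted p = 0.424 for PNP, with an unadjusted p of 0.00886. The ZES segment was the higher one in 13 of 16 pairs of a ZES and a BMS segment. CDA differed by 1.35 ± 0.82 (SE, 95% interval -0.37 to 3.08; limma adjusted p = 0.651), ranked 290th, and was higher in 11 of 16 pairs. Neither gene passed, and in this comparison 0% of genes did by limma, with 449 of 5793 at an unadjusted p under 0.05. Both results hinge on the BMS pigs. For PNP, without the pig of BMS segments 3 and 4 the difference was 5.02 (limma adjusted p = 0.00385), and without the pig of BMS segments 1 and 2 it was 0.69. The 5.02 sets ZES against BMS segments 1 and 2 alone, from 1 pig, where PNP was not above background. Those low values also helped to choose the gene, so nothing is read from that p-value. Leaving out BMS segment 1 alone gave 1.81. For CDA the difference was 2.27 without the pig of BMS segments 3 and 4, and 0.43 without the pig of BMS segments 1 and 2 or without BMS segment 2 alone; none of these passed.

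The comparison of ZES with SES sets the stent with the sirolimus analog beside the stent with sirolimus, at doses that the sources used here do not state. It shares the SES arrays with the comparison that chose the genes for high SES values, so it is not independent of that choice. ZES minus SES for CDA was -2.94 ± 0.82 on the log2 scale (SE, 95% interval -4.67 to -1.22), the 18th lowest of 5793 genes. Every ZES segment lay below every SES segment for CDA, with a gap of 0.20 between the closest, a separation seen in 3.23% of genes. The limma adjusted p was 0.193, with an unadjusted p of 0.00221. PNP differed by -1.91 ± 0.96 (SE, 95% interval -3.94 to 0.13; limma adjusted p = 0.529), the 91st lowest, and in 1 of 16 pairs the ZES segment was higher. In this comparison 0.121% of genes passed, neither PNP nor CDA among them. The interval for PNP includes no difference as well as a difference of more than 3 log2 units, so these arrays do not show that the stents act alike on it. CDA passed the threshold under 2 alternatives: with array weights (-2.87, limma adjusted p = 0.0400) and without the pig of BMS segments 1 and 2 (-2.94, limma adjusted p = 0.0472), whose arrays enter only the estimate of spread. Over all alternatives its limma adjusted p ranged up to 0.720, without the pig of SES segments 1 and 2, and with the GAPDH control as a covariate the difference was -5.12 (limma adjusted p = 0.710).

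**Figure D2:**
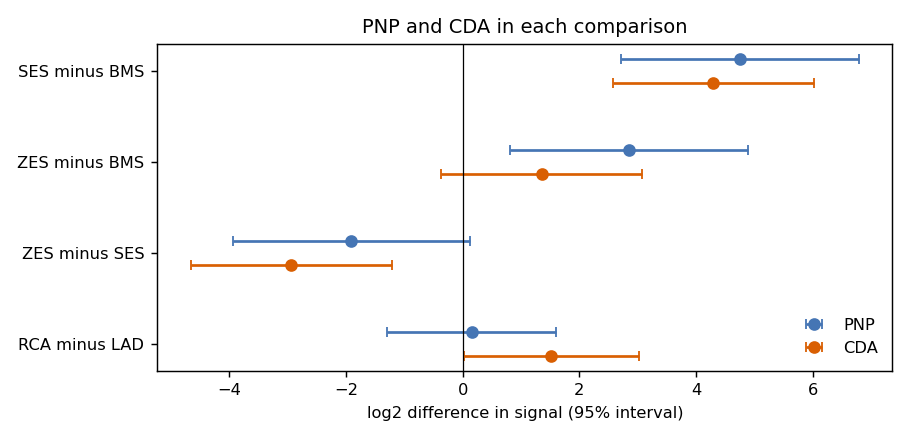
Log2 difference in signal (horizontal axis) of PNP (blue) and CDA (orange) in each comparison, with 95% intervals from limma. For ZES minus SES the interval for CDA (-4.67 to -1.22) lies below 0 and that for PNP (-3.94 to 0.13) includes it; SES minus BMS is the comparison that chose the genes.

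PNP and CDA were high or low together within stent types on most arrays. On 10 of 12 arrays both lay on the same side of their own stent group's mean, the exceptions being BMS segment 1 and SES segment 4. Pearson's r of these deviations was 0.55. How often other pairs of genes lay on the same side was not counted, so the number is not read as particular to PNP and CDA. On BMS segment 1 PNP was below background at 3.58 while CDA, at 7.43, was the second highest of its group. Pig means of PNP were 9.33 and 9.32 with ZES, 11.52 and 10.94 with SES, and 4.31 and 8.64 with BMS. Pig means of CDA were 7.81 and 7.88 with ZES, 10.59 and 10.99 with SES, and 5.57 and 7.42 with BMS. The pig means of a group lay close to each other for both genes with either drug-eluting stent, while those of BMS were further apart. These means hide unlike segments: within the ZES pigs the segments differed by 3.08 and 0.24 for PNP and by 3.82 and 1.11 for CDA.

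Within pigs, the RCA and LAD segments were compared in the 5 pigs that had both. CDA was higher in the RCA than in the LAD by 3.82 and 1.11 in the ZES pigs, by 0.15 in the SES pig, and by 3.70 in 1 BMS pig, with -1.18 in the other BMS pig. The mean RCA minus LAD difference for CDA was 1.52 ± 0.69 (SE, 95% interval 0.01 to 3.02), positive in 4 of 5 pigs, with a limma adjusted p of 0.723 and an unadjusted p of 0.0481. Its 2 largest values have limits. The 3.82 includes ZES segment 2 and the 3.70 BMS segment 1, arrays that stood apart in 28S ribosomal RNA signal (described below). The 3.70 also rests on BMS segment 2, where CDA was not above background. The other pigs gave 1.11, 0.15 and -1.18 for CDA. PNP differed by 3.08 and 0.24 in the ZES pigs, by 1.34 in the SES pig, and by -1.45 and -2.45 in the BMS pigs, which averages to 0.15 ± 0.67 (SE; limma adjusted p = 0.973). The direction of the average for PNP turned to -0.14 without the SES pig and to -0.58 without the pig of ZES segments 1 and 2. In this comparison 0% of genes passed by limma, with 376 at an unadjusted p under 0.05. In the remaining SES pig, the RCA exceeded the LCX by 0.91 for PNP and by 1.33 for CDA.

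The PNP artery difference was positive in both ZES pigs and had negative values in both BMS pigs. In the BMS pig with -1.45, neither segment was above background, so only the pig with -2.45 gives a direction for BMS. The 3.08 and the -1.45 each include an array that stood apart in 28S ribosomal RNA signal (ZES segment 2 and BMS segment 1, described below), and the pigs without such an array gave 0.24 and -2.45. The mean artery difference was 1.66 with ZES and -1.95 with BMS, and ZES minus BMS was 3.60 ± 1.11 (SE, 95% interval 1.14 to 6.06), an estimate that carries the undetected BMS pair. This interaction was added after the values had been seen. It did not pass (limma adjusted p = 0.522, unadjusted p of 0.00844), and 0% of 16799 probe sets passed for it, with 1376 at an unadjusted p under 0.05. For CDA the same difference of differences was 1.20 ± 1.59 (SE; limma adjusted p = 0.840).

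**Figure D3:**
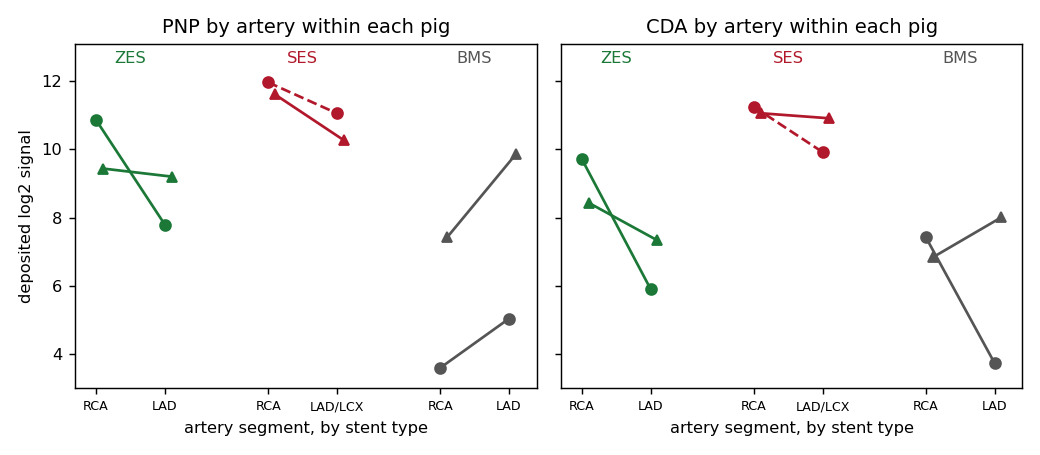
Deposited log2 signal (vertical axis) of PNP (left) and CDA (right) in the artery segments of each pig, by stent type. Lines join the segments of 1 pig, circles mark the pig of segments 1 and 2 and triangles that of segments 3 and 4, and the dashed line is the SES pig with an LCX segment. PNP lies lower in the LAD than in the RCA in both ZES pigs (RCA minus LAD 3.08 and 0.24) and higher in the LAD in both BMS pigs (-1.45, where neither segment is above background, and -2.45).

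Of 49 listed genes of nucleoside salvage and breakdown other than PNP and CDA, 23 had a probe set of their own and 18 were tested. None passed: limma called 0 of 18 in each comparison of stents. Over all genes it called 0% for ZES with BMS, 0.898% for SES with BMS and 0.121% for ZES with SES. A count of 0 in a list this small is near those shares. At an unadjusted p under 0.05 there were 1 of 18 for ZES with BMS, 6 for SES with BMS and 2 for ZES with SES. Over all 5793 genes there were 449, 911 and 659. The list's median difference was -0.01 for ZES minus BMS, 0.03 for SES minus BMS and -0.20 for ZES minus SES, beside 0.01, -0.01 and 0.01 over all genes. In SES minus BMS, 9 of the 18 had positive and 9 had negative differences. The 18 differences ran from -1.59 to 1.91.

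The genes that handle the products of PNP are given first. PGM2 is named because it was among the 5 genes most like PNP over the 12 arrays. Since PNP was chosen for SES with BMS, the SES minus BMS difference of PGM2 is not independent of that choice. PGM2, which converts ribose 1-phosphate to ribose 5-phosphate, had log2 signals of 12.91, 10.39, 12.08 and 11.70 with ZES, 13.003, 13.19, 13.04 and 12.49 with SES, and 9.88, 10.56, 11.51 and 12.14 with BMS. All SES segments were above all BMS segments, a separation found for 4.90% of genes, and the ZES segments overlapped both groups. SES minus BMS was 1.91 ± 0.48 (SE; limma adjusted p = 0.0776), ZES minus BMS was 0.75 (limma adjusted p = 0.675) and ZES minus SES was -1.16 (limma adjusted p = 0.425). PGM2 passed for SES with BMS under 5 alternatives, among them without BMS segment 4 (2.29, limma adjusted p = 0.0340) and without the pig of BMS segments 3 and 4 (2.71, limma adjusted p = 0.00996). Without the pig of BMS segments 1 and 2 it was 1.11 (limma adjusted p = 0.299).

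HPRT1, which joins hypoxanthine and guanine to a ribose phosphate, had log2 signals of 9.29, 10.14, 9.35 and 8.91 with ZES, 10.66, 10.59, 10.42 and 10.05 with SES, and 8.53, 8.56, 9.63 and 9.70 with BMS. The SES segments lay above all BMS segments, as for 4.90% of genes, while ZES segment 2 reached into the SES range. SES minus BMS was 1.33 ± 0.37 (SE; limma adjusted p = 0.102), ZES minus BMS was 0.32 (limma adjusted p = 0.841) and ZES minus SES was -1.01 (limma adjusted p = 0.355). HPRT1 passed for SES with BMS with array weights (1.47, limma adjusted p = 0.0223) and without the pig of BMS segments 3 and 4 (1.88, limma adjusted p = 0.01999). Without the pig of BMS segments 1 and 2 it was 0.77 (limma adjusted p = 0.375).

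The direct partners other than HPRT1 that could be tested differed less between SES and BMS than HPRT1 did. For ADK, which phosphorylates adenosine, SES minus BMS was -0.43 on the brightest probe set (limma adjusted p = 0.759). On another ADK probe set SES minus BMS went the other way, at 0.91 (limma adjusted p = 0.772). For TK2, the mitochondrial thymidine kinase, it was 0.10 (limma adjusted p = 0.955). DCTD, which deaminates deoxycytidine monophosphate the nucleotide counterpart of the step of CDA, gave 0.56 (limma adjusted p = 0.643). Its SES segments, at 8.68 to 9.04, lay above its BMS segments, at 7.30 to 8.59, as for 4.90% of genes. The ZES segments of DCTD, at 6.47 to 8.88, overlapped both. The nucleoside transporter SLC29A1 was removed by the filter on low signal, with group means of 3.06 with ZES, 2.43 with SES and 3.38 with BMS on the log2 scale. ADA, DCK, MTAP, NT5E, XDH, UPP1, TYMP, TK1 and UCK2 had no probe set of their own and were not analysed here.

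Of the 6 salvage and breakdown genes at an unadjusted p under 0.05 for SES with BMS, PGM2 and HPRT1 are described above, and the other 4 were named after their values were seen. DPYD, the first enzyme of pyrimidine breakdown, gave SES minus BMS of 1.08 (limma adjusted p = 0.155). SAMHD1, which hydrolyses deoxynucleoside triphosphates, gave 0.995 (limma adjusted p = 0.169). DGUOK, the mitochondrial deoxyguanosine kinase, gave -1.21 (limma adjusted p = 0.181). ADA2, a secreted adenosine deaminase in humans, gave -1.15 (limma adjusted p = 0.271) and was also the single gene at that level for ZES with BMS, with -1.14 (limma adjusted p = 0.498).

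De novo synthesis, the route that builds nucleotides from small precursors, had 20 of 34 listed genes on the array and 19 tested. Limma called 0 of 19 in each comparison of stents. Over all genes it called 0% for ZES with BMS, 0.898% for SES with BMS and 0.121% for ZES with SES. A count of 0 in a list this small is near those shares. At an unadjusted p under 0.05 there were 3, 4 and 1 in the same order, beside the 449, 911 and 659 of all 5793 genes. The list's medians were -0.07, -0.02 and -0.01 in these comparisons. The highest SES minus BMS difference was 1.97 for RRM2, a subunit of ribonucleotide reductase (limma adjusted p = 0.269). It was followed by 1.54 for GMPS, which makes guanosine monophosphate (limma adjusted p = 0.148). GMPS was also higher with ZES than with BMS, by 1.28 (limma adjusted p = 0.465, unadjusted p of 0.0178). RRM1, the large subunit of that reductase, gave a ZES minus BMS of 1.26 (limma adjusted p = 0.424). On its brightest probe set PRPS2, a phosphoribosyl pyrophosphate synthetase, was lower with both drug-eluting stents at an unadjusted p under 0.05. ZES minus BMS was -0.71 and SES minus BMS was -0.68 (limma adjusted p = 0.479 and 0.267). Another PRPS2 probe set went the other way, with 0.23 and 0.38, and a further one gave -0.66 and -1.49. GUK1, the guanylate kinase, gave an SES minus BMS of -0.97 (limma adjusted p = 0.329). These 5 were also named after their values were seen. For RCA with LAD limma called 0 members of either list, with 0 and 3 at an unadjusted p under 0.05.

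**Figure D4:**
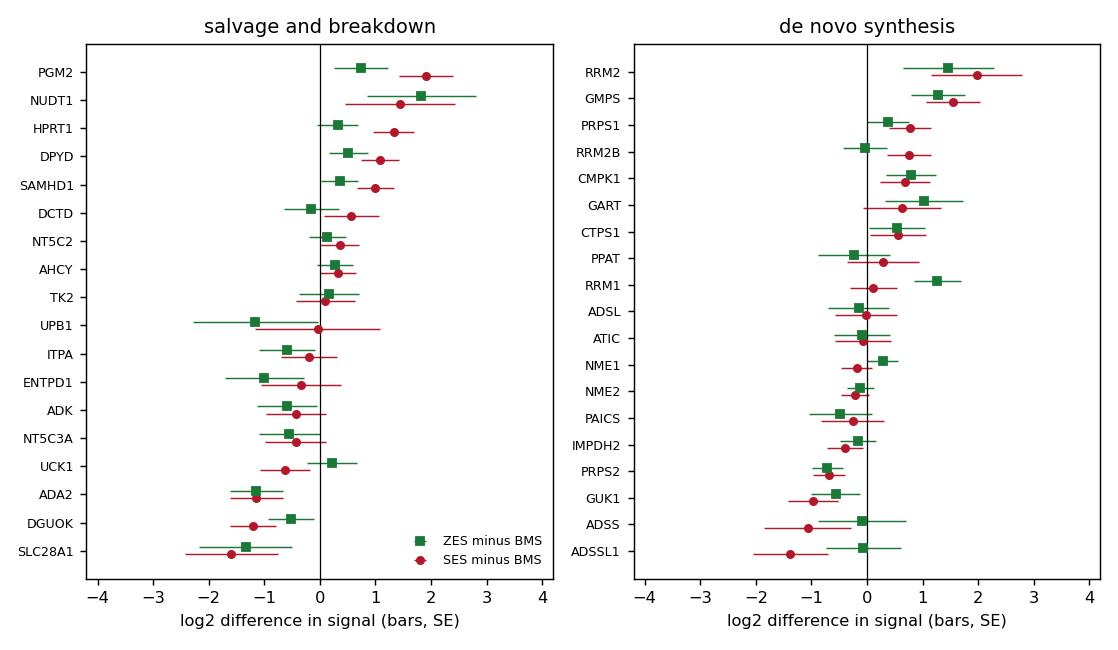
Log2 difference in signal (horizontal axis, bars are SE) of the 18 tested genes of nucleoside salvage and breakdown (left) and the 19 of de novo synthesis (right), ZES minus BMS in green and SES minus BMS in red. The SES minus BMS differences run between -1.59 and 1.91 on the left and between -1.38 and 1.97 on the right, and none of the genes passed the limma threshold.

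The genes whose pattern over the 12 arrays was most like that of PNP were CD1E, DHX15, PGM2, RASSF4 and NFKBIA, with Pearson's r of 0.961, 0.947, 0.946, 0.944 and 0.943 among 5792 genes. CD1E belongs to the family that presents lipid antigens, DHX15 is an RNA helicase, and NFKBIA holds NF-kappa-B in the cytoplasm. CD1E spanned a larger range than PNP, with means of 9.43 with ZES, 12.65 with SES and 4.87 with BMS, while DHX15 spanned less, with 9.81 with ZES, 10.16 with SES and 9.21 with BMS. The genes most like CDA were NFIL3, FBP1, PIM2, ARG1 and HK3, with r of 0.934, 0.910, 0.908, 0.900 and 0.899. NFIL3 is a transcription factor of immune cells, PIM2 a serine/threonine kinase, FBP1 an enzyme of gluconeogenesis, ARG1 the cytosolic arginase, and HK3 a hexokinase. FBP1 had means of 12.12 with ZES, 14.91 with SES and 11.46 with BMS, and ARG1 had 10.66 with ZES, 12.94 with SES and 7.45 with BMS. CDA was only the 130th gene by likeness to PNP (r = 0.80), and PNP the 75th by likeness to CDA. These r describe 12 arrays that share their 3 stent groups and 6 pigs, and no gene occurs in both lists of 5.

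**Figure D5:**
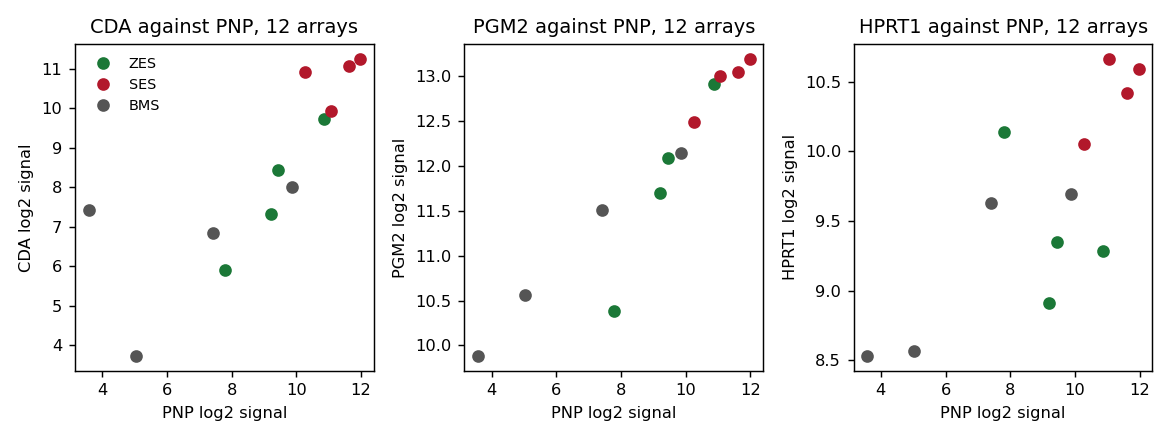
Deposited log2 signal of CDA (left), PGM2 (middle) and HPRT1 (right) on the vertical axis against that of PNP on the horizontal axis, 1 point per array, with ZES in green, SES in red and BMS in grey. PGM2 follows PNP across all 3 stent types (r = 0.946 over 12 arrays), and the BMS array at 3.58 for PNP lies apart in the panel of CDA, where it reads 7.43.

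Several features of the arrays moved with the stent groups and so with PNP and CDA. The spike-in controls averaged 15.30 with ZES, 15.09 with SES and 16.30 with BMS (log2), and the GAPDH control, 3′ minus 5′, averaged 3.66 with ZES, 2.71 with SES and 4.16 with BMS. Both controls separated SES from BMS (two-sided exact permutation test over 70 arrangements, p = 0.0286, which is as small as that test can give, and adjusted p = 0.0643 over 9 tests). The GAPDH difference also separated ZES from SES, and the background level separated ZES from BMS (4.72 with ZES and 5.51 with BMS), each with the same exact permutation p. With the GAPDH difference as a covariate the SES minus BMS difference of CDA was 7.62. The signal for 28S ribosomal RNA was 13.42 on ZES segment 2 and 13.30 on BMS segment 1, against 6.95 to 10.12 elsewhere, and these segments had the lowest PNP of their groups. Without both arrays, PNP gave 2.40 for ZES minus BMS, 3.79 for SES minus BMS and -1.40 for ZES minus SES, and CDA gave 2.30, 4.60 and -2.30. The part of the controls in the results was not tested further.

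Marker genes of cells that the dissected wall could hold were read on the same arrays, and few of them passed. Over all genes, 0.898% passed for SES with BMS, 0.121% for ZES with SES and 0% for ZES with BMS. The mean log2 signal of 6 measured neutrophil markers of 12 listed ranged over the segments from 5.36 to 9.45 with ZES, 6.995 to 9.08 with SES and 5.14 to 6.80 with BMS. Limma called 0 of the 4 tested, and ELANE was at 0 on some array. All 4 were positive for SES minus BMS (median 3.17) and for ZES minus BMS (median 2.76), and 1 was positive for ZES minus SES (median -0.15). For 9 measured T and NK cell markers of 12 listed the ranges were 5.06 to 6.39 with ZES, 6.17 to 7.23 with SES and 3.83 to 5.22 with BMS. Of 7 tested, limma called CD3E (4.90, adjusted p = 0.0172) and SH2D1A (3.72, adjusted p = 0.0290) higher with SES than with BMS, and CD3D was at 0 on some array. SES minus BMS was positive for 6 of the 7, and CD2, the brightest of the list, gave -0.13 (limma adjusted p = 0.937). For 7 monocyte and macrophage markers the ranges overlapped, with 8.63 to 9.27 with ZES, 8.95 to 9.71 with SES and 8.25 to 9.29 with BMS, and limma called 0 of 6. Smooth muscle markers, which define the tissue, ranged from 9.86 to 13.19 with ZES, 8.87 to 11.91 with SES and 11.56 to 12.64 with BMS, with 0 of 7 called by limma and all 7 negative for SES minus BMS. In each group 6 of the 7 were above background on every array. Of the other marker lists, limma called UPK1B, an epithelial gene, higher with SES than with BMS, and 0 members of the B and plasma cell, erythrocyte, endothelial, fibroblast and cardiomyocyte lists in any comparison of stents. Which cells carried the PNP and CDA transcripts was not tested.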

How the data were processed

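Total RNA of 12 stented artery segments of 6 pigs was measured on Affymetrix porcine arrays. Per the submitters' processing notes, the authors used Affymetrix Expression Console 5.0 together with MAS5, and the deposited values are log2 signals. That the scale is log2 was read from the values, since 2 to that power has a trimmed mean (2% off each end) between 500.15 and 500.17 on every array. The sources used here state no scaling target, detection calls or handling of low signals. Values of 0 occur at 41 to 1153 probe sets of an array, none of them PNP or CDA.

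The file holds 24123 probe sets, of which 124 are controls. The 30% with the lowest mean were removed, which left 16799. In the platform's annotation 10069 probe sets have 1 symbol, 198 have several and 13732 have none, and only those with 1 were named. The brightest probe set stood for a gene, which gave 5793 genes tested. No pseudocount or further normalization was used. An array's background was the 95th percentile of its 59 controls for sequences not spiked in, and 61.0% to 74.5% of probe sets lay above it.

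Stent types were compared on all 12 arrays with R 4.3.3, limma 3.58.1 and statmod 1.5.0, taking the pig as a random block (consensus correlation -0.0322) and a variance trend. RCA and LAD were compared on 10 arrays with the pig as a fixed block. All p-values are two-sided and were adjusted over all 16799 probe sets by the method of Benjamini and Hochberg, with a threshold of 0.05. The fits were tested on simulated data. Precision is limited by how few arrays and pigs there are.

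The genes, the pathway and marker lists and the alternatives were chosen with earlier results of these data known. Named genes are PNP and CDA, every list member past the threshold, 14 direct partners where measured, the 5 genes most like each of PNP and CDA by Pearson's r over the 12 arrays, and examples of marker lists; others are marked as named after their values were seen. Alternatives changed the block, the variance trend, array weights, the filter, a pseudocount of 32, the scaling, control covariates, the arrays entered, and single segments or pigs. No sequence of the probe sets, transcripts or proteins was used here.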

Additional observations from a re-analysis of the deposited data

Results flagged for a closer look

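The RCA minus LAD difference of PNP averaged 1.66 with ZES and -1.95 with BMS on the log2 scale. ZES minus BMS was 3.60 ± 1.11 (SE), with a limma adjusted p of 0.522 over all probe sets, and each side rests on 2 pigs. In 1 of the BMS pigs PNP was not above background in either artery, so the BMS direction rests on the other.

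Single segments stood apart from the other 3 of their group for 2 of the 7 genes examined, in 21 groups of 4 segments; chance alone gives this in about 5% of groups. ADK had a log2 signal of 5.84 on ZES segment 1, against 6.19 to 6.25 on the other ZES segments. DCTD had 7.30 on BMS segment 4, against 8.48 to 8.59 on the other BMS segments. PNP and CDA had no such segment.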

How the results depend on the processing

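PNP and CDA kept the direction of each stent difference under all 32 alternatives tried, many of which change only the spread, the filter or the arrays of the third stent type and so cannot turn it. PNP SES minus BMS was 2.59 without the pig of BMS segments 1 and 2 and 6.93 without that of segments 3 and 4. CDA SES minus BMS was 7.62 ± 1.56 (SE) with the GAPDH covariate, a control that itself separates SES from BMS. PNP ZES minus BMS passed at 5.02 without the pig of BMS segments 3 and 4, which leaves only BMS segments 1 and 2, where PNP was not above background. CDA ZES minus SES passed at -2.87 with array weights and at -2.94 without the pig of BMS segments 1 and 2, and was -5.12 without passing under the GAPDH covariate. Leaving out 1 segment at a time gave 1.81 to 4.01 (PNP) and 0.43 to 2.02 (CDA) for ZES minus BMS, 3.72 to 5.91 and 3.37 to 4.81 for SES minus BMS, and -2.43 to -1.38 and -3.58 to -2.27 for ZES minus SES. The RCA minus LAD difference of PNP ranged from -0.58 to 0.80, turning to -0.14 without SES segment 3 or 4 and to -0.58 without ZES segment 1 or 2, and that of CDA from 0.94 to 2.19. PGM2 ZES minus BMS turned to -0.055 and HPRT1 to -0.24 without the pig of BMS segments 1 and 2, and HPRT1 to -0.11 without the arrays of highest 28S signal. The causes were not tested.

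The number of probe sets called was less stable. For SES with BMS (114 called), it was 64 with means per pig, 19 with no variance trend, 673 with array weights, 183 with no filter, 199 with the pseudocount, 0 with either control covariate, 178 with only the arrays compared, 7 with artery as a term and 26 without the 28S arrays. It was 69 and 405 without either BMS pig, 1 without the pig of SES segments 1 and 2, 360 without that of ZES segments 1 and 2, and 0 (without SES segment 3) to 415 with 1 segment left out. For ZES with SES (12 called), it was 6 with no pig block, 4 with means per pig, 0 with no trend, 306 with array weights, 48 with no filter, 47 with the pseudocount, 6 with median centring or quantile normalization, 5 with the spike-in covariate, 0 with the GAPDH covariate, 5 with only the arrays compared, 4 with artery as a term and 4 without the 28S arrays. Without 1 pig it was 47 and 54 (BMS), 1 and 59 (SES) and 43 (ZES segments 3 and 4), and with 1 segment left out 0 to 158. For ZES with BMS (0 called by limma, 1510 at an unadjusted p under 0.05), it was 3 with no filter, 4 and 71 without either BMS pig, 5 and 11 without either ZES pig, and 0 to 4 with 1 segment left out. Salvage genes called for SES with BMS (0 in the reported test) numbered 3 with array weights (PGM2, HPRT1, DPYD), 1 with only the arrays compared (PGM2), 2 without the pig of BMS segments 3 and 4 (PGM2, HPRT1), 1 without that of ZES segments 1 and 2 (PGM2), and 0 to 1 with 1 segment left out. De novo genes numbered 1 with array weights (GMPS).

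The artery term, the omission of the 28S arrays, the artery interaction and the alternatives for PGM2 and HPRT1 were added after the data had been seen. Another probe set could not be tried for PNP or CDA, which have 1 each. No paired analysis was possible because the labels give no replicate numbers shared across stent types and each pig carried 1 stent type. PNP was above background on 2 of 4 BMS arrays and CDA on 3 of 4, so their low BMS signals, and the folds over them, are imprecise.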
